A study of Homo sapiens with 4 samples.

Results

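LTN1 encodes Listerin, the ubiquitin ligase that marks the unfinished protein on a stalled ribosome for destruction. It was examined together with 9 further genes of ribosome rescue and nascent-chain quality control, namely NEMF, TCF25, ANKZF1, VCP, PELO, HBS1L, ABCE1, ASCC2 and ASCC3. These 10 genes are 10 of the 14431 genes listed, and each reached a mean of 1 CPM (reads of a gene scaled to the size of its library) in 1 group or both. The list was chosen by function around LTN1, and LTN1 was selected on its difference between these same libraries, where it was among the largest rises. Its values are therefore given as a description with no test. The other 9 genes were chosen with earlier results of these data known.

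The libraries came from HGC27, a human gastric cancer cell line, grown without glucose and given 25 mM lactate in both groups. Cells of 2 libraries had received small interfering RNA against AARS1 (siAARS1), and 2 libraries were controls. The labels give 24 h of lactate and the text of the study gives another duration, so the time is uncertain. AARS1 encodes the alanyl-tRNA synthetase, and the comparison asked which transcripts differed when it was targeted under lactate. Libraries without lactate were not analysed here, and knockdown by small interfering RNA leaves part of the target.

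For AARS1 (listed as AARS) the controls held 428 and 417 CPM and the knockdown libraries 292 and 298 CPM, lower in both. The mean left after siAARS1 was 69.7% of the mean control CPM. Each library held 30653210 to 33522573 reads in listed genes, so 1 read was worth 0.0293 to 0.0324 CPM. As to the labelled cell type, 2 of 5 epithelial markers (KRT8 and CDH1) and 0 of 5 gastric markers were listed. KRT8 had 24.8 and 25.2 CPM in controls against 6.61 and 5.08 CPM after siAARS1, and CDH1 stayed at or under 2.55 CPM. Of the mesenchymal markers, VIM had 5131 and 5068 CPM in controls against 4710 and 4600 CPM after siAARS1, and ZEB1 went from 6.16 and 6.84 CPM to 50.03 and 52.3 CPM. The fibroblast gene COL1A1 went from 2320 and 2399 CPM to 1644 and 1541 CPM, and DCN had 239 to 270 CPM in the 4 libraries. Of 5 immune and endothelial markers 1 was listed (CD68, at most 1.10 CPM). The part of these markers in the results below was not tested.

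A ribosome that stalls on a damaged or truncated message is struck by the ribosome behind it, and the collision marks it for rescue. The ASC-1 complex, with the helicase ASCC3 and the ubiquitin-binding subunit ASCC2, takes collided ribosomes apart. PELO and its GTPase partner HBS1L bind a stalled ribosome with no usable codon, and the ATPase ABCE1 then splits the subunits. The large subunit keeps the unfinished chain, still joined to its tRNA. NEMF recognizes this remnant, recruits LTN1 and can extend the chain with alanine tails, which uses the alanyl-tRNA that AARS1 makes. LTN1 then ubiquitylates the chain with the help of TCF25, ANKZF1 cuts it from the tRNA, and the unfoldase VCP pulls it out for the proteasome.

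The genes that were higher in siAARS1 libraries and those that were not differed in base composition, which their coding sequences show directly. Below are the middle 120 bases of the annotated coding sequences (GENCODE v29 transcripts, GRCh38) of 3 genes of the first kind and 3 of the second. They run 5′ to 3′, with G and C in capitals and A and T in lower case. Counted from the first coding base, they start at base 2659 in LTN1, 1555 in NEMF, 3244 in ASCC3, 1075 in ASCC2, 955 in TCF25 and 1150 in VCP.
LTN1: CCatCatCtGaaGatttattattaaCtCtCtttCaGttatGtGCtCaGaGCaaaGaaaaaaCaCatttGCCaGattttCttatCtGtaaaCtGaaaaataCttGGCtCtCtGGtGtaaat
NEMF: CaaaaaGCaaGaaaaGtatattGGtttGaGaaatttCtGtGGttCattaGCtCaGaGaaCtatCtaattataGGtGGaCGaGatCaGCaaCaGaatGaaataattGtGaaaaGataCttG
ASCC3: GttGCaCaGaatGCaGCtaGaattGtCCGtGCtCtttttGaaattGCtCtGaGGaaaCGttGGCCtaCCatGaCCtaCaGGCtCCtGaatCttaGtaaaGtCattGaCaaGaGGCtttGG
ASCC2: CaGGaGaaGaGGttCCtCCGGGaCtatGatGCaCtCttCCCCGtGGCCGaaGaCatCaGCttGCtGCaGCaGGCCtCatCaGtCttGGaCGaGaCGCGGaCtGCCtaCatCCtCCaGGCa
TCF25: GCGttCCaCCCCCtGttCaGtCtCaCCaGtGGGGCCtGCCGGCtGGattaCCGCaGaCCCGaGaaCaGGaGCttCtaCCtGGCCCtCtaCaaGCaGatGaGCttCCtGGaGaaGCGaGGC
VCP: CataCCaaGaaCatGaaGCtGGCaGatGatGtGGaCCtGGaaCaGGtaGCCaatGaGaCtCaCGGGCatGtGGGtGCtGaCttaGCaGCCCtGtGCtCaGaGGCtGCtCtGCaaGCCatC

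G and C made up 32.5% of these windows in LTN1 and in NEMF and 45% in ASCC3, against 59.2% in ASCC2, 61.7% in TCF25 and 55.0% in VCP. The same held for whole transcripts. The transcripts with the longest coding sequence of LTN1, NEMF, HBS1L, ABCE1 and ASCC3 had 37.0% to 39.9% GC, and those of PELO, VCP, ANKZF1, ASCC2 and TCF25 had 45.3% to 59.0%. At the third position of codons the shares were 31.4% to 35.4% in the first 5 genes and 53.1% to 72.9% in the other 5.

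LTN1 (ENSG00000198862; chromosome 21, 28928144 to 28992956, minus strand, 30 exons) is the ligase itself. Controls held 4.05 and 4.35 CPM of it, against 42.2 and 43.9 CPM after siAARS1. The groups were far apart and the libraries of each group were close. These levels rested on 138 reads in each control library and on 1303 and 1460 reads in the siAARS1 libraries. The mean CPM was 10.3-fold higher in siAARS1, and the difference was 3.08 ± 0.09 (SE, n = 2 libraries per group) on the log2(CPM + 1) scale, the fifth largest rise of 14199 genes tested. Its neighbours in that order were TEX15, at 3.10, and BCLAF1, at 3.05. CPM gives the share of a transcript in the RNA of many cells, so more cells with LTN1 RNA and more of it per cell cannot be told apart.

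NEMF (ENSG00000165525; chromosome 14, 49782083 to 49853203, minus strand), which recruits LTN1, also rose. It had 7.01 and 8.76 CPM in controls against 42.4 and 49.4 CPM after siAARS1, with no overlap. Its mean was 5.82-fold higher, and the difference on the log2(CPM + 1) scale was 2.40 ± 0.09 (SE, n = 2, adjusted p = 1.4e-15). NEMF shares 3010 exon bases, 31.9% of its annotated exon bases, with KLHDC2 on the opposite strand, and whether counting used strand is not given in the sources used here. KLHDC2 had 32.5 and 33.4 CPM in controls against 25.7 and 27.8 CPM after siAARS1, a difference in the other direction from that of NEMF.

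The other partner of LTN1 on the large subunit, TCF25 (ENSG00000141002; chromosome 16, 89873570 to 89913627, plus strand), fell slightly. It had 139 and 140 CPM in controls against 124 and 122 CPM after siAARS1, a difference of -0.18 ± 0.04 on the log2(CPM + 1) scale (SE, n = 2, adjusted p = 5.4e-04). Its siAARS1 level was 88.3% of the mean control CPM, and its direction turned in the corrections given further on.

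The genes that act after ubiquitylation also had small differences. ANKZF1 (ENSG00000163516; chromosome 2, 219229757 to 219236669, plus strand), which releases the chain from its tRNA, had 33.1 and 33.8 CPM in controls against 28.3 and 30.1 CPM after siAARS1. Its difference was -0.19 ± 0.06 on the log2(CPM + 1) scale (SE, n = 2, adjusted p = 0.012). The call was lost without control replicate 2 (adjusted p = 0.075), without siAARS1 replicate 1 (adjusted p = 0.084) and in DESeq2 (adjusted p = 0.19).
VCP (ENSG00000165280; chromosome 9, 35056064 to 35073249, minus strand), which serves many other pathways too, had 622 and 616 CPM in controls against 577 and 551 CPM after siAARS1. Its difference was -0.13 ± 0.04 on the log2(CPM + 1) scale (SE, n = 2, adjusted p = 0.0020). In both genes the siAARS1 libraries lay below the controls, at 87.3% and 91.1% of the mean control CPM.

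The factors that split stalled ribosomes did not move together. ABCE1 (ENSG00000164163; chromosome 4, 145097932 to 145129179, plus strand), the ATPase, had 36.7 and 40.3 CPM in controls against 165 and 179 CPM after siAARS1. Its mean was 4.47-fold higher, with a difference of 2.13 ± 0.05 on the log2(CPM + 1) scale (SE, n = 2, adjusted p = 7.3e-19).
HBS1L (ENSG00000112339; chromosome 6, 134960378 to 135103056, minus strand), the GTPase, had 22.6 and 25.1 CPM in controls against 46.9 and 44.5 CPM after siAARS1. Its difference was 0.91 ± 0.07 on the log2(CPM + 1) scale (SE, n = 2, adjusted p = 6.0e-11), and its direction too turned in the corrections given further on. The groups were apart for both genes, by much more for ABCE1.
PELO (ENSG00000152684; chromosome 5, 52787940 to 52804046, plus strand), which binds the empty decoding site, had 29.004 and 28.997 CPM in controls against 25.0 and 25.6 CPM after siAARS1. Its difference was -0.19 ± 0.07 on the log2(CPM + 1) scale (SE, n = 2, adjusted p = 0.014). The call was lost without control replicate 1, control replicate 2 or siAARS1 replicate 1 (adjusted p = 0.065, 0.063 and 0.060) and in DESeq2 (adjusted p = 0.20).

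The pair from the ASC-1 complex also differed. ASCC3 (ENSG00000112249; chromosome 6, 100508194 to 100881372, minus strand), the helicase, had 6.54 and 7.69 CPM in controls against 59.97 and 66.45 CPM after siAARS1. Its mean was 8.88-fold higher, and the difference on the log2(CPM + 1) scale was 2.99 ± 0.08 (SE, n = 2, adjusted p = 3.6e-18).
ASCC2 (ENSG00000100325; chromosome 22, 29788608 to 29838304, minus strand), the subunit that reads ubiquitin, had 89.4 and 90.9 CPM in controls against 87.0 and 84.0 CPM after siAARS1. Its difference of -0.076 ± 0.045 on the log2(CPM + 1) scale did not pass the test (SE, n = 2, adjusted p = 0.14). The siAARS1 libraries lay below the controls here too, at 94.8% of the mean control CPM.

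**Figure D1:**
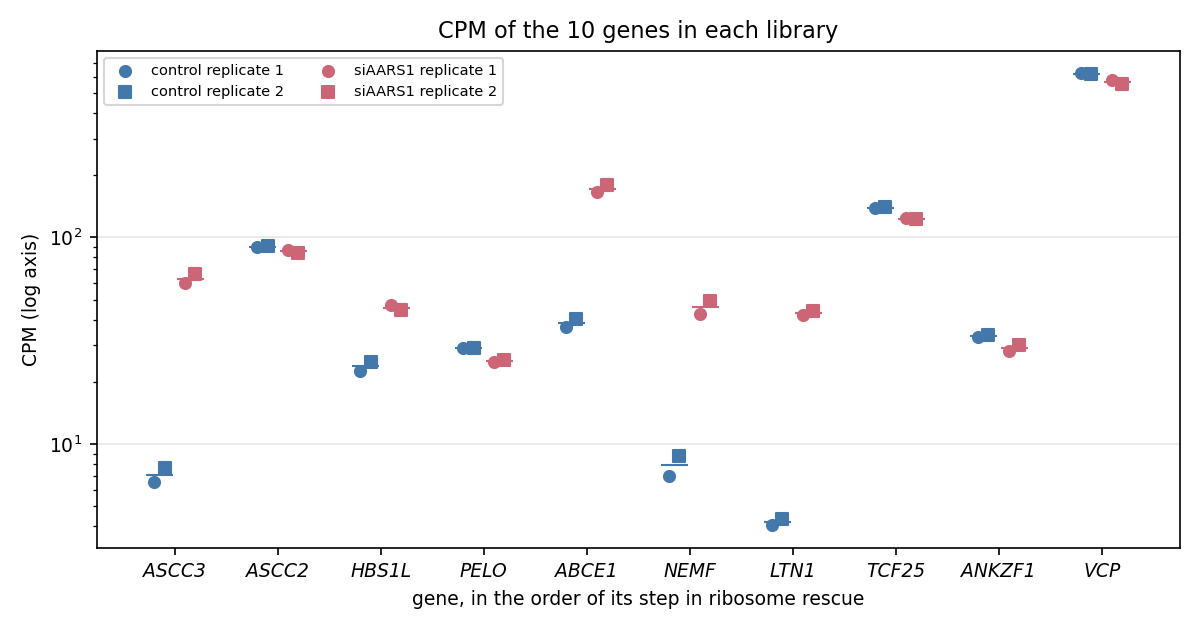
CPM (log axis) of the 10 genes in each of the 4 libraries, with 1 point per library and a line at the mean of each group, ordered by step of rescue. LTN1, NEMF, ASCC3, ABCE1 and HBS1L are higher in both siAARS1 libraries, and the points of each of the other 5 genes lie close together, as from 29.004 down to 24.965 CPM in PELO.

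Of the 9 genes other than LTN1, 4 were called higher in siAARS1 libraries (NEMF, ASCC3, ABCE1 and HBS1L), beside 32.6% of all genes tested, and 4 were called lower (TCF25, VCP, ANKZF1 and PELO), beside 38.0%. The latter number was 2 without control replicate 2 and 2 without siAARS1 replicate 1. A call is an adjusted p under 0.05 in limma over all 14199 genes. NEMF, ASCC3 and ABCE1, 3 of the 9, were called and at least 2-fold higher on the log2(CPM + 1) scale, beside 10.6% of all genes. The median difference of the 9 genes was -0.076 and that of all genes tested was -0.054. With each library scaled to its median gene, the median of all genes became -0.27, 29.6% of calls were higher in place of 46.2%, and ASCC2 was called lower at -0.30. Relative to those medians, the differences of TCF25, VCP, ANKZF1, PELO and ASCC2 lay between -0.14 and -0.022 with the CPM as deposited and between -0.15 and -0.036 under median scaling.

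Compared per kilobase of transcript, the order of the levels changed between the groups. In controls LTN1 had the lowest level, 0.541 ± 0.028 CPM per kb (SD, n = 2), followed by ASCC3 at 0.873 ± 0.0999 and NEMF at 1.26 ± 0.20. Next came HBS1L at 3.32 ± 0.25, PELO at 6.67 ± 0.0011, ABCE1 at 9.83 ± 0.65 and ANKZF1 at 13.0 ± 0.2 CPM per kb. ASCC2 at 31.9 ± 0.4, TCF25 at 62.5 ± 0.2 and VCP at 142 ± 0.904 CPM per kb stood highest, and no neighbours overlapped. In siAARS1 libraries LTN1 (5.55 ± 0.16), PELO (5.81 ± 0.10), HBS1L (6.38 ± 0.23), NEMF (7.36 ± 0.80) and ASCC3 (7.76 ± 0.56) lay between 5.44 and 8.16 CPM per kb. NEMF and ASCC3 overlapped there, while ABCE1 was above ANKZF1, at 43.9 ± 2.6 and 11.3 ± 0.5 CPM per kb.

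Ratios between partners within a library do not depend on how the libraries are scaled to each other. LTN1 stood at 0.464 and 0.399 of NEMF per kb in controls and at 0.801 and 0.714 in siAARS1 libraries. Against TCF25, LTN1 stood at 0.00837 and 0.00896 in controls and at 0.0979 and 0.103 in siAARS1 libraries. LTN1 was selected on its rise in these same libraries, so its higher ratios to both partners on the large subunit are a description only. The ratio of ASCC3 to ASCC2 was 0.0254 and 0.0293 in controls and 0.239 and 0.274 in siAARS1 libraries. HBS1L stood at 0.472 and 0.525 of PELO in controls and at 1.14 and 1.06 in siAARS1 libraries, and ABCE1 went from 1.41 and 1.54 of PELO to 7.33 and 7.77. The groups did not overlap for any of these ratios. In each pair the gene with the larger log2 difference was written first, so the direction of the ratios restates the values of the single genes. Once GC content and length were corrected for, the log2 difference of HBS1L minus that of PELO went from 1.10 to -0.00023, and that of LTN1 minus that of TCF25 from 3.26 to 1.57. In the correction for the coding sequence and 3' UTR, described further on, they were 0.035 and 1.27. With 2 libraries against 2 an exact two-sided permutation test cannot give a p under 0.333, so no test was made.

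**Figure D2:**
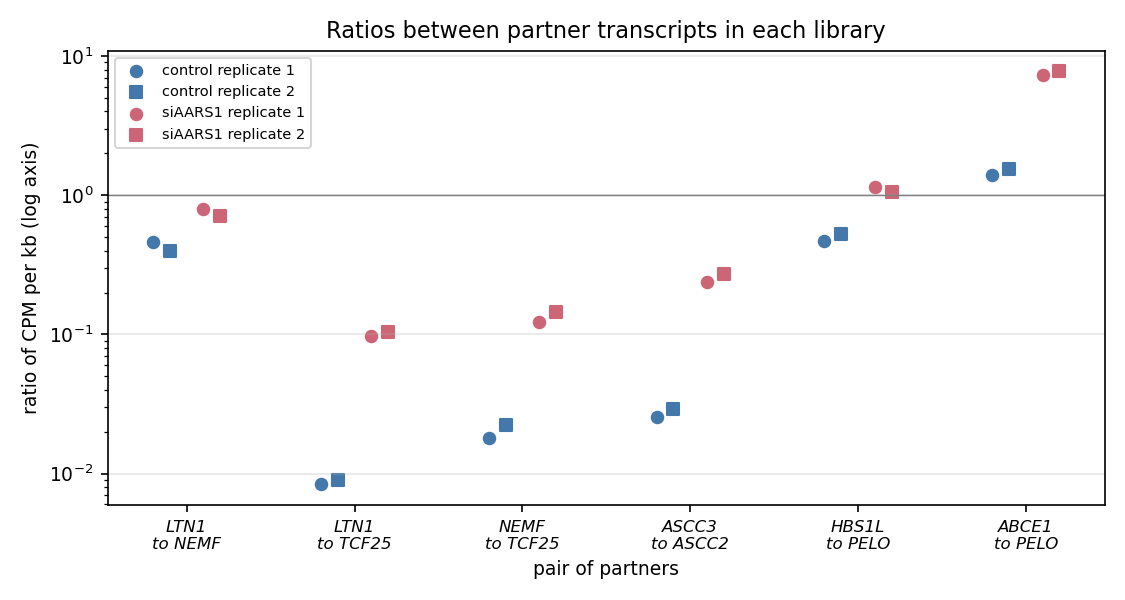
Ratio of CPM per kb (log axis) between partner transcripts, with 1 point per library. In all 6 pairs both siAARS1 libraries lie above both controls, from 1.76-fold in the mean ratio of LTN1 to NEMF up to 11.6-fold in that of LTN1 to TCF25. Each pair has the gene with the larger log2 difference first, so this direction restates the differences of the single genes.

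The differences followed transcript GC content across the whole table. Over 13819 genes with an annotated transcript, Spearman's correlation of the log2 difference was -0.65 with GC content and 0.29 with length, and over 12251 genes it was -0.69 with GC at the third codon position. Genes of 1 library share its depth and preparation, so these are descriptions across genes with no p. Among the 1826 genes with less than 40% GC, 84.3% were called higher, 44.9% were called and at least 2-fold higher, and the median difference was 0.89 on the log2(CPM + 1) scale. LTN1, NEMF, HBS1L, ABCE1 and ASCC3 belong there. Among the 6818 genes with 50% GC or more, 61.5% were called lower and 7.38% higher. TCF25, VCP, ANKZF1 and ASCC2 belong there, and so does the targeted gene AARS1, at 53.5% GC. The limits of these ranges were set after seeing the data. PELO, at 45.3% GC, was lower in a range where 20.7% of 5175 genes were called lower and 47.9% higher. Its coding sequence had 55.3% GC and its 3' UTR 32.7%.

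**Figure D3:**
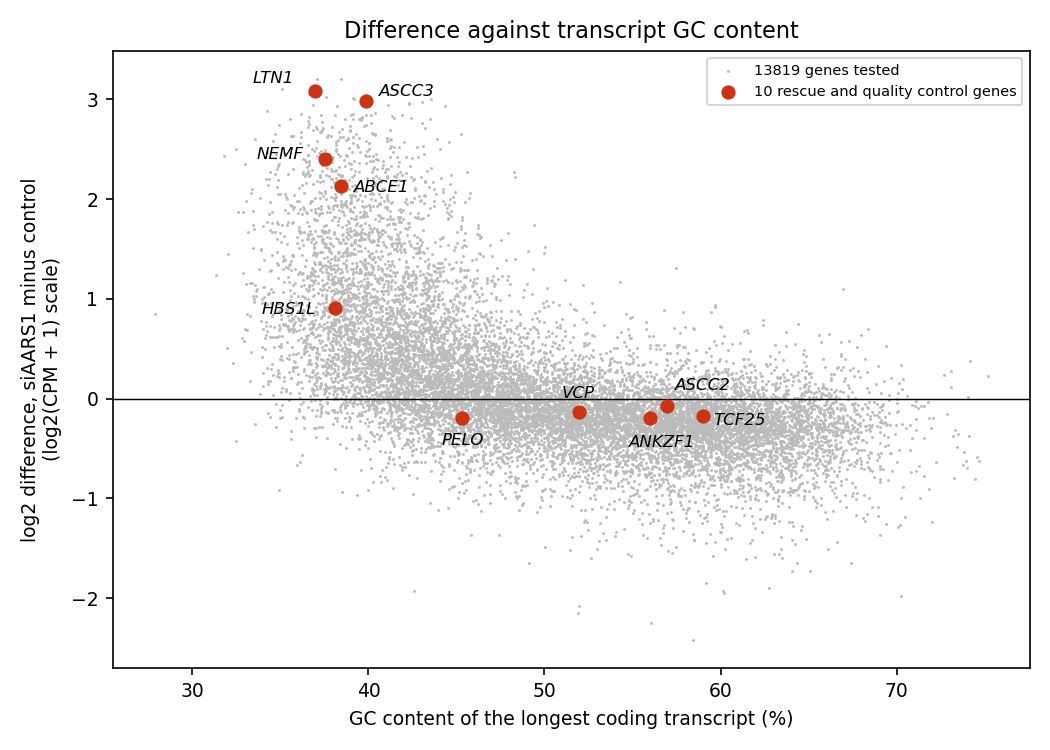
Difference between the groups on the log2(CPM + 1) scale against the GC content of the transcript with the longest coding sequence, in percent, for 13819 genes (grey) and the 10 rescue and quality control genes (red). LTN1 and ASCC3 lie near the upper edge of genes of like GC content, whereas HBS1L lies amid them and PELO below most.

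Alanine codons, the codons that AARS1 serves, made up 5.35% of the LTN1 coding sequence, the lowest share of the 10 genes, and 10.7% of that of ANKZF1, the highest. In NEMF, ABCE1, ASCC3 and HBS1L the shares were 6.04% to 6.43%, and in ASCC2, TCF25, PELO and VCP they were 7.001% to 8.06%. The 5 genes with the lowest shares were thus the 5 that were higher in siAARS1 libraries. Across 12251 genes the share of alanine codons had a Spearman correlation of -0.35 with the log2 difference. Alanine codons begin with GC, so this share is not independent of GC content.

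When the trend with transcript GC content and length was taken out of each library, LTN1 remained 1.71 higher on the log2(CPM + 1) scale, ASCC3 1.82, NEMF 1.10 and ABCE1 1.06 (adjusted p at most 2.9e-09 for the 3 tested). HBS1L turned, to -0.46 (adjusted p = 4.6e-06), beside PELO at -0.46 (adjusted p = 2.2e-06). TCF25 turned to 0.14 (adjusted p = 0.0012) and ASCC2 to 0.23 (adjusted p = 2.8e-05). ANKZF1 and VCP turned to 0.092 and 0.045 and were not called (adjusted p = 0.18 and 0.13).
A second correction, for GC content and length of the coding sequence and 3' UTR, gave 1.42 for LTN1, 1.32 for ASCC3, 0.81 for NEMF and 0.69 for ABCE1, the last 3 called (adjusted p at most 9.3e-10). HBS1L was at -0.20 (adjusted p = 0.0038), PELO at -0.24 and VCP at -0.11, all called lower, whereas TCF25 at 0.15 and ASCC2 at 0.14 were called higher. ANKZF1, at 0.037, was not called (adjusted p = 0.58). AARS1 stayed lower in both, at -0.27 and -0.43 on that scale. A true change that runs with these properties is removed by either correction too.

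**Figure D4:**
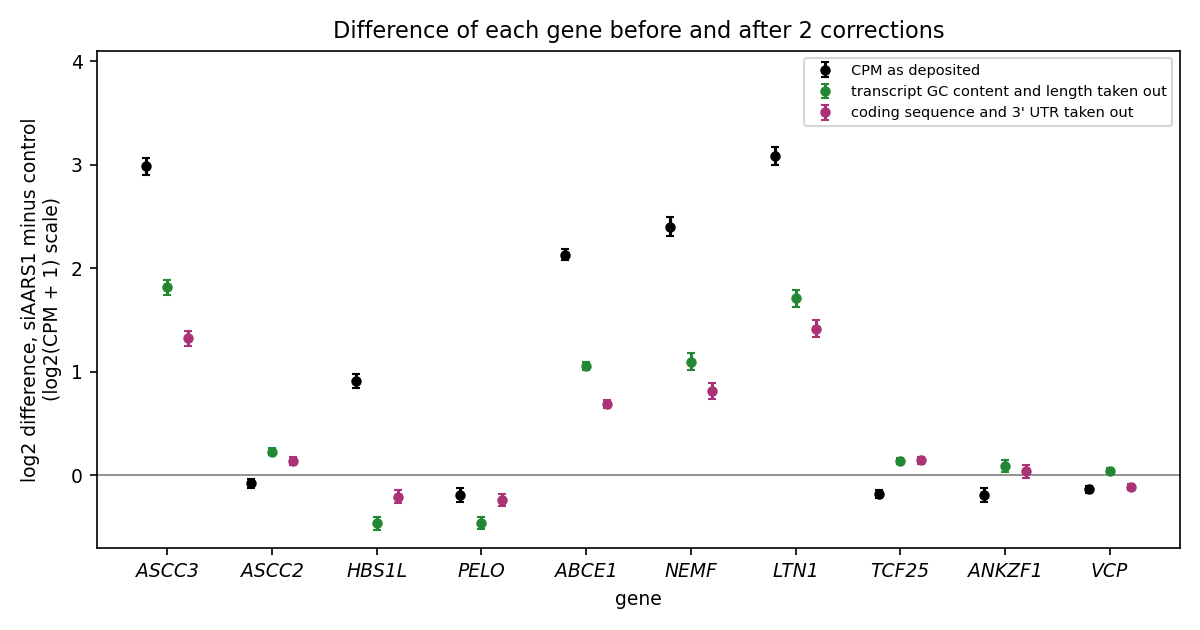
Difference of each gene between the groups on the log2(CPM + 1) scale, with its SE (n = 2 libraries per group), from CPM as deposited (black) and after each of 2 corrections (green and purple). ASCC3, ABCE1, NEMF and LTN1 stay above 0 in all 3, HBS1L falls from 0.91 to below 0, and the other 5 genes stay between -0.46 and 0.23.

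A wider list of 47 genes in 6 roles around rescue and quality control was described next. GSPT2 and MAP3K20 were not among the genes listed. Of the 45 tested, 23 were called higher (beside 32.6% of all genes), 14 lower (beside 38.0%) and 8 were not called, with a median difference of 0.14 on the log2(CPM + 1) scale beside -0.054 for all genes. After the correction for transcript GC content and length, 20 of 44 were called higher and 9 lower, beside 4518 and 4644 of 13819 genes. In the second correction 24 of 44 were called higher and 16 lower, beside 4391 and 4320 of 12086 genes. Quantile normalization called 18 higher and 17 lower, beside 3984 and 6776 of 14199 genes. Under median scaling 17 were called higher and 20 lower, beside 3364 and 8011 of 14205 genes. More of the list was thus called lower than higher there, as in all genes. DESeq2 called 23 higher and 9 lower, beside 4499 and 3856 of 14199 genes. The values that follow are differences on the log2(CPM + 1) scale with their SE (n = 2). Apart from ZNF598, the genes named passed the test (adjusted p at most 0.021). Those other than ZNF598 and GSPT1 had the largest rises and falls of their role. The counts by role are read beside the same shares of all genes, 32.6% higher and 38.0% lower. Those in the corrections are read beside the counts of all genes just given.

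The sensing of collisions begins with ubiquitylation of the small subunit by ZNF598. In the CPM as deposited, 5 of its 14 genes were called higher and 5 lower, near the shares of all genes. The first correction called 6 higher and 3 lower, and the second 9 higher and 4 lower. ZNF598 itself was at -0.050 ± 0.045 and not called (adjusted p = 0.33), but its direction depended on the processing. It was called higher in both corrections, at 0.31 (adjusted p = 1.6e-06) and 0.22 (adjusted p = 1.9e-05). Under median scaling it was called lower, at -0.28 (adjusted p = 7.9e-06). GIGYF2, a repressor of translation on faulty messages, rose by 0.73 ± 0.05, and CNOT4, a ligase of the CCR4-NOT complex, by 0.45 ± 0.08. RNF10, a ligase for proteins of the small subunit, was at -0.41 ± 0.05, and RACK1 (listed as GNB2L1), a scaffold at the collision interface, at -0.32 ± 0.04. CNOT4 lost its call in both corrections, at 0.16 (adjusted p = 0.056) and 0.11 (adjusted p = 0.17), and RACK1 was at -0.057 (adjusted p = 0.047) in the first.
Of the 5 partners in disassembly 2 rose and 3 fell. In the first correction 2 were called higher and 2 lower, and in the second 1 higher and 3 lower. N4BP2, related to a yeast nuclease that cuts messages in collided ribosomes, had 0.9925 ± 0.2015 CPM in controls and 10.7 ± 0.3 CPM in siAARS1 libraries (SD, n = 2), a difference of 2.56 ± 0.13. TRIP4, the scaffold of the ASC-1 complex, differed by 0.33 ± 0.09 and turned to -0.053 in the second correction. The GTPases GTPBP2 and GTPBP1, relatives of HBS1L, were at -0.45 ± 0.05 and -0.33 ± 0.05. The call of GTPBP1 was lost in the first correction, at -0.028 (adjusted p = 0.54).

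Among 4 genes of nascent chain clearance, 2 were called higher and 1 lower. The first correction called 0 higher and 2 lower, and the second 1 higher and 1 lower. RCHY1 and KLHDC10 encode ligase components that recognize alanine tails. RCHY1 rose by 1.16 ± 0.08, and KLHDC10 by 0.18 ± 0.05. After the correction for transcript GC content and length they turned to -0.047 and -0.51, and KLHDC10 turned to -0.044 under median scaling as well. NPLOC4, a cofactor of VCP, was at -0.13 ± 0.04. Without control replicate 1 the calls of KLHDC10 and NPLOC4 were lost (adjusted p = 0.062 and 0.060).

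UFM1 is a ubiquitin-like protein joined to ribosomes stalled at the endoplasmic reticulum, and 5 of its 9 genes were called higher and 2 lower. UFL1, its ligase, rose by 1.93 ± 0.09, and ODR4 (listed as C1orf27), a partner of the protease UFSP2, by 1.57 ± 0.09. The adaptors of the ligase, CDK5RAP3 and DDRGK1, were at -0.18 ± 0.04 and -0.16 ± 0.06, and turned to 0.086 and 0.15 after the correction for transcript GC content and length. The call of DDRGK1 was lost without control replicate 1, control replicate 2 or siAARS1 replicate 2 (adjusted p = 0.085, 0.082 and 0.13). UFL1 was thus higher while its adaptors were lower in the CPM as deposited, but in both corrections UFL1, CDK5RAP3 and DDRGK1 were all called higher. In the second they were at 0.77, 0.16 and 0.40. The first correction called 7 of the 9 genes higher and 0 lower, and the second 8 higher and 1 lower.
Of the genes for decay of stalled messages 6 of 8 were called higher and 2 lower, with a median of 0.95. In the first correction 4 of 7 were called higher and 0 lower, with a median of 0.50, and in the second 5 of 7 were called higher and 2 lower, with a median of 0.24. In the SKI complex, which feeds messages to the exosome, the scaffold SKIC3 (listed as TTC37) rose by 2.70 ± 0.08, whereas the helicase SKIC2 (SKIV2L) was at -0.29 ± 0.05 and SKIC8 (WDR61) at -0.17 ± 0.05. DIS3, a nuclease of the exosome, rose by 2.56 ± 0.09. With transcript GC content and length taken out, SKIC3 and DIS3 were at 1.36 and 1.18 and SKIC2 turned to 0.034. The call of SKIC8 was lost without control replicate 1 or siAARS1 replicate 2 (adjusted p = 0.28 and 0.075).
In regular termination and recycling, 3 of 5 genes were called higher and 1 lower, whereas the second correction called 0 higher and 5 lower, and the first 1 higher and 2 lower. DENR, a recycling factor, rose by 0.77 ± 0.05, and ETF1, the release factor that PELO resembles, by 0.76 ± 0.04. EIF2D, another recycling factor, was at -0.15 ± 0.05. In the second correction DENR, ETF1 and GSPT1 (0.31 as deposited) turned to -0.25, -0.081 and -0.11. In the first, GSPT1 turned further, to -0.75 (adjusted p = 5.4e-13), DENR to -0.049 and EIF2D to 0.075. Under median scaling GSPT1 was at 0.078 and lost its call (adjusted p = 0.092). The call of EIF2D was lost without control replicate 1, control replicate 2 or siAARS1 replicate 1 (adjusted p = 0.057, 0.070 and 0.083).

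**Figure D5:**
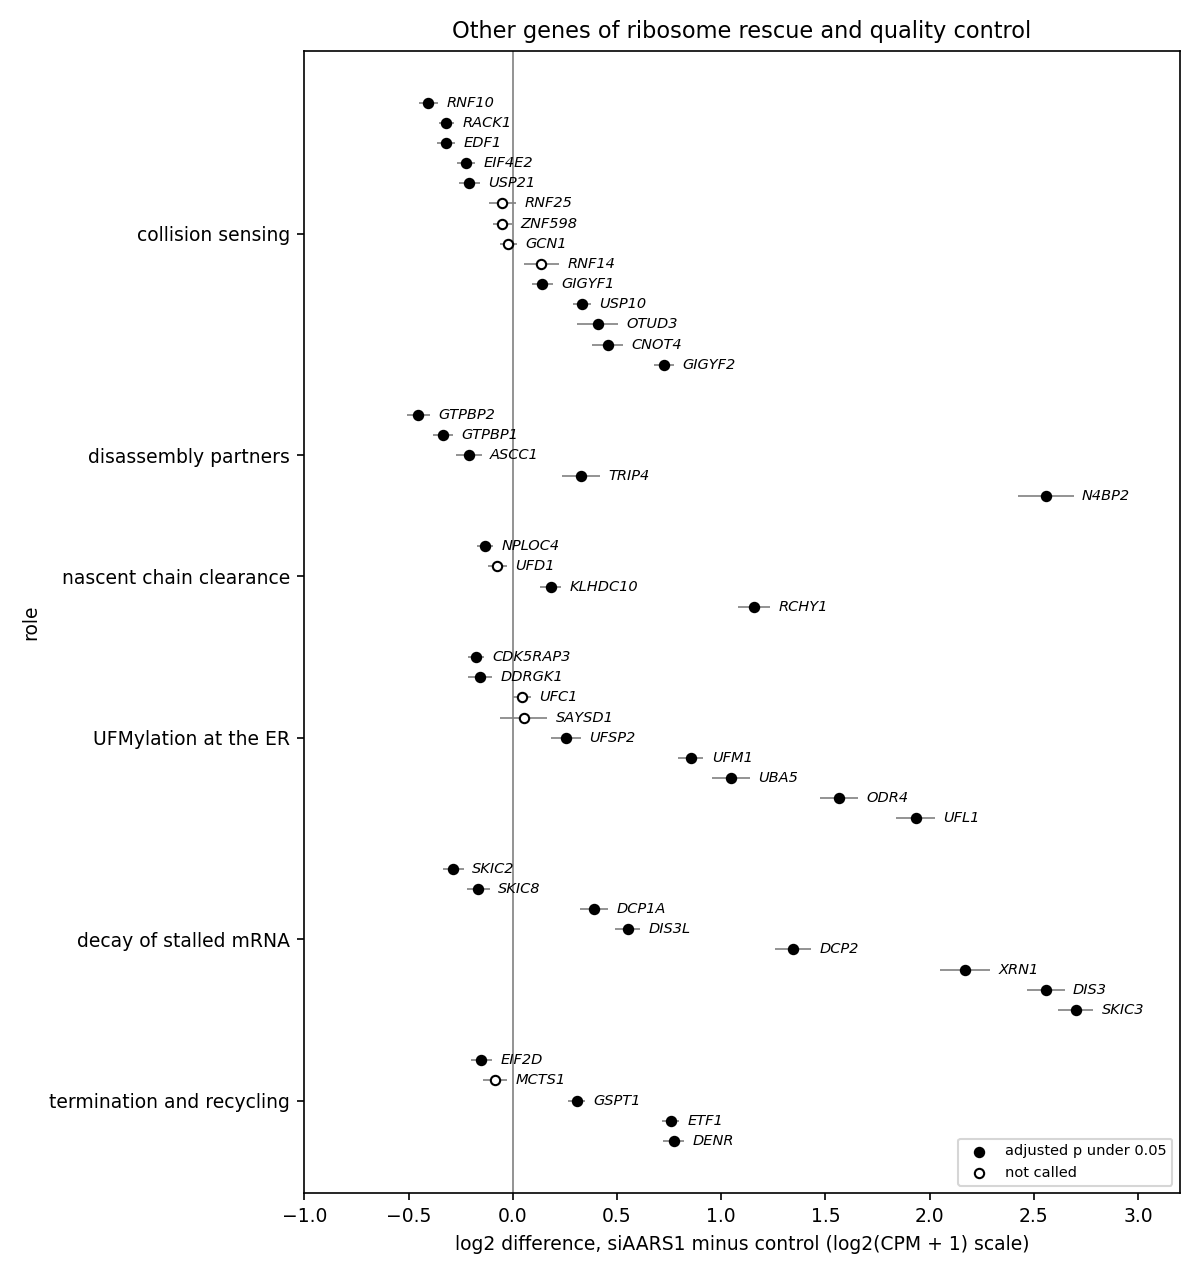
Difference between the groups on the log2(CPM + 1) scale, with its SE (n = 2 libraries per group), of the 45 other genes of rescue and quality control, by role. Filled points passed the test, open points did not, and the rises reach 2.70 (SKIC3) while the falls end at -0.45 (GTPBP2).

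Some of the 10 genes share exon bases with other listed genes, so their reads may be split or joined depending on how they were counted. PELO shares 475 exon bases (10.9%) with ITGA1 on the same strand, and ITGA1 had 0.567 to 0.938 CPM in controls and 3.17 to 3.31 CPM in siAARS1 libraries. TCF25 shares 547 (6.87%) with MC1R on the same strand, and MC1R was 1.16-fold higher in siAARS1 libraries. ABCE1 shares 469 (7.49%) with ANAPC10 and 276 (4.41%) with OTUD4, both on the opposite strand. OTUD4 itself was 3.35-fold higher in siAARS1 libraries, while ANAPC10 was 1.10-fold higher and not called (adjusted p = 0.32). ANKZF1 shares 64 (1.05%) with GLB1L on the opposite strand. GLB1L had 5.31 and 5.58 CPM in controls against 3.04 and 2.35 CPM after siAARS1, lower like ANKZF1. LTN1, VCP, HBS1L, ASCC2 and ASCC3 share no exon bases with a listed gene.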

How the data were processed

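The authors deposited 1 table of CPM values for 14431 genes in 4 libraries. RSEM 1.3.3 and hg38 appear in the submitters' processing notes, and the annotation and use of strand are not given in the sources used here. In each library 100% of the deposited CPM values equalled a whole number of reads within 0.1 read, which gave the reads behind them. CPM corrects for neither length nor GC content.

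The members and gene lists were chosen with earlier results of these data known. limma 3.58.1 (R 4.3.3, eBayes with trend) compared siAARS1 with control on log2(CPM + 1) for the 14199 genes that reached a group mean of 1 CPM. Adjusted p-values are Benjamini-Hochberg over all of them, with a threshold of 0.05. Replicate origins are not stated, so p-values measure no spread beyond that between these samples. In limma the SE and p-value of a gene also draw on the variance of other genes, not only on its own 2 libraries per group. Replicates differed beyond sampling noise (chi-square per gene 3.63 and 3.62). Alternatives included edgeR 4.0.16 and DESeq2 1.42.0 on recovered reads and smooth GC and length trends removed per library (mgcv 1.9.3). Intervals from depth would cover counting error only.

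Named genes were the 10 members, AARS1, up to 2 called rises and 2 called falls per role of the wider list with at least 5 CPM in the higher group, the highest and lowest of 13 large ubiquitin ligases, and the 5 genes nearest to LTN1 in pattern. ZNF598 and genes overlapping a member are named beside these, as are GSPT1, HUWE1, HERC2 and UBR4, chosen after their values were seen. Coordinates and transcripts came from GENCODE v29 (GRCh38) through the gene ID (GC and length for 97.2% of listed genes), and may not be those the authors used. DCP1A was not matched. Amino acid sequences were not used here, and 1 gene of the wider list is not reported here.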

Additional observations from a re-analysis of the deposited data

How the results depend on the processing

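All 4 rises among the 9 tested members kept their calls in limma without a filter, with a pseudocount of 0.1, under median scaling, quantile normalization and each left-out library, and in edgeR and DESeq2. LTN1 ranged from 1.42 to 3.41. The number of members called lower, 4 in the fit reported, was 2 in DESeq2, 2 at a threshold of 0.01, 2 once GC content and length were corrected for, with or without the replicate block, and 2 to 4 with 1 library left out (2 without control replicate 2 and 2 without siAARS1 replicate 1), where a lone library was assumed to vary like the others. Members called and at least 2-fold higher numbered 1 (ASCC3) in place of 3 once the coding sequence and the 3' UTR were corrected for, a choice made after seeing the data. The wider list called lower numbered 9 in place of 14 in DESeq2, 9 once GC content and length were corrected for, and 8 with the replicate block added to that correction, but 20 under median scaling (with 17 in place of 23 called higher), 17 under quantile normalization and 16 in the correction for the coding sequence. Labels do not say whether same-numbered libraries were paired, though their library identifiers are consecutive. Across genes, the deviations of the replicate 1 libraries from their group means had a correlation of 0.12. Those of replicate 2 are the same with the sign turned. The replicate block moved the genes called from 10032 to 10389 and changed no call of the named genes in the uncorrected fit. Added to the GC content and length correction, it ended the call of RACK1 (adjusted p = 0.052).

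Corrected for GC content and length, with or without the block, these log2 differences turned: TCF25 0.14, ANKZF1 0.092, VCP 0.045, HBS1L -0.46, ASCC2 0.23, RCHY1 -0.047, KLHDC10 -0.51, CDK5RAP3 0.086, DDRGK1 0.15, SKIC2 0.034, DENR -0.049 and EIF2D 0.075. Corrected for the coding sequence and the 3' UTR, these turned: TCF25 0.15, ANKZF1 0.037, HBS1L -0.20, ASCC2 0.14, TRIP4 -0.053, CDK5RAP3 0.16, DDRGK1 0.40, DENR -0.25 and ETF1 -0.081. KLHDC10 turned to -0.044 under median scaling. Of 33 genes examined this way, 12 lost a call under at least 1 alternative in which their direction held (ANKZF1, PELO, CNOT4, RACK1, TRIP4, GTPBP1, RCHY1, KLHDC10, NPLOC4, DDRGK1, SKIC8 and EIF2D). Among them ANKZF1, TRIP4, RCHY1, KLHDC10, DDRGK1 and EIF2D turned under another alternative, as listed above. ZNF598 and GSPT1 were not among the 33, and their values under alternatives are given with their roles. ASCC2 was called lower under median scaling and quantile normalization. The corrections remove what follows the named properties by construction, and the cause of the other changes was not tested. In counting error alone, LTN1 in controls, at 138 reads per library, is the least precise of the 10 genes.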

Other observations

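Among 11284 genes averaging 5 CPM or more over the 4 libraries, the 5 whose centred log2(CPM + 1) profile lay nearest to that of LTN1 were BCLAF1, FAM208B, TOP2A, RANBP2 and SMC2, at Euclidean distances of 0.047 to 0.105. This is a description over 4 libraries with no test. With the 2 groups far apart, the profile is mostly the size of the rise on which LTN1 was selected. The differences of the 5 genes were 3.001 to 3.11 on the log2(CPM + 1) scale, beside 3.08 for LTN1. BCLAF1, an RNA-processing factor, had 15.1 and 16.5 CPM in controls against 134 and 142 CPM after siAARS1. TOP2A, the DNA topoisomerase of dividing cells, had 57.5 and 63.9 CPM in controls against 477 and 516 CPM after siAARS1.

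LTN1 is one of a group of very large ubiquitin ligases. Of 13 other such ligases, 12 were called higher (beside 32.6% of all genes), 9 of them at least 2-fold (beside 10.6%), and 1 was called lower (beside 38.0%), with a median difference of 1.46 on the log2(CPM + 1) scale. Their median transcript GC content was 44.8%. MYCBP2 was highest, at 3.002, with 11.4 and 11.0 CPM in controls and 94.9 and 98.6 CPM in siAARS1 libraries. RNF213 was lowest, at -0.14, with 200 and 204 CPM in controls and 185 and 182 CPM in siAARS1 libraries. After the correction for transcript GC content and length they were at 2.02 and -0.10. There 12 were called higher and 1 lower, beside 4518 and 4644 of 13819 genes. In the correction for the coding sequence and 3' UTR 9 were called higher and 4 lower, with a median of 0.44, beside 4391 and 4320 of 12086 genes. HUWE1, HERC2 and UBR4 turned in this second correction to -0.42, -0.35 and -0.53, while MYCBP2 was at 1.54 and RNF213 at -0.84. Under median scaling UBR4 turned as well, to -0.096. HUWE1, at 0.056 (limma adjusted p = 0.22), and HERC2, at 0.059 (adjusted p = 0.21), lost their calls under that scaling.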
